A study of Mus musculus with 6 samples.

Results

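Epidermal growth factor (EGF) family ligands and their receptors were examined in RNA sequencing libraries of mouse heart tissue taken 3 days after surgery. The group holds 9 genes, chosen by their place in the family, 5 ligands (*Hbegf*, *Areg*, *Ereg*, *Tgfa* and *Nrg1*) and 4 receptors (*Egfr*, *Erbb2*, *Erbb3* and *Erbb4*), of the 17441 genes that were listed in at least 1 library. All 9 were listed. The libraries came from 12-week-old male mice in 3 groups of 2: WT sham, in which the surgery was done without ligation, WT MI, in which the left anterior descending coronary artery was ligated, and *Card9* KO MI, in which mice lacking *Card9* had the same ligation. The knockout was kept on a C57BL/6 background, RNA was taken from the tissue below the ligature, and no *Card9* KO sham library was analysed here.

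EGF family ligands are made as membrane-bound precursors. Metalloproteases of the ADAM family cut them free, and the released ligand binds receptor tyrosine kinases that act in pairs. EGFR binds HB-EGF, amphiregulin, epiregulin and TGF-alpha, ErbB3 and ErbB4 bind neuregulins, and ErbB2 has no known ligand of its own and serves as the partner of the others, while ErbB3 has little kinase activity and signals through its partner. In the heart, neuregulin from endothelial cells acts on ErbB4 and ErbB2 of cardiomyocytes, and loss of ErbB2 in cardiomyocytes leads to dilated cardiomyopathy.

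*Card9*, the gene targeted in the knockout, encodes an adaptor protein of myeloid cells. Its FPKM (a level in fragments, scaled to transcript length and library depth) was 0.99 and 1.03 in WT sham, 3.39 and 5.08 for WT MI, and 9.85 and 6.94 for both libraries with the *Card9* KO MI label. The targeted transcript was thus not lower in the libraries that carry the knockout label, called KO-labelled infarct libraries from here on, where its log2 fold change against WT MI was 0.85 with an adjusted p of 0.112 in limma. The labels do not say which part of the gene is deleted, so whether these fragments come from outside it was not tested. Every direction given against WT MI below rests on that label.

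The libraries listed 14935 to 15852 genes, and the spacing of their lowest values put their depth at 3010000 to 4290000 fragments, lowest in WT sham. Libraries of one group correlated at 0.984 to 0.986 across genes. Cardiomyocyte markers were abundant in every library, as the tissue label has it, with a summed FPKM of 47300 and 48700 in WT sham, 29600 and 30100 for WT MI, and 24600 and 28400 for the KO-labelled infarct libraries. Macrophage markers ran the other way at 173 to 200, 673 to 815, and 1050 to 1440, and so did fibroblast markers at 493 and 475, 1150 and 1550, and 2520 and 2440. Of the fibroblast list, *Col1a1* went from a group mean of 43.22 FPKM in WT sham to 437.4 (WT MI) and 900.9 (KO-labelled). *Col1a2* and *Postn* rose likewise, while *Dcn* had group means of 321.7, 341.2 and 303.5 FPKM. Neutrophil markers summed to 7.64 and 5.4 FPKM, 212 and 92.9, and 59.8 and 46.7, with *Ly6g* not listed. Endothelial markers summed to 345 to 367 in the WT libraries and 422 and 416 in the KO-labelled ones. *Kdr* fell from a group mean of 60.56 FPKM in WT sham to 37.48 (WT MI) and 40.51 (KO-labelled), while *Cdh5* had 84.81, 96.47 and 126.3. Epicardial and mesothelial markers summed to 6.26 and 7.34, 11.5 and 7.22, and 14.7 and 13.8. *Krt18* held 9.87 and 9.41 of the last 2 sums, while *Upk3b* had group means of 1.36, 0.305 and 0.115. T cell and innate lymphoid markers summed to 3.97 to 6.21 in the WT libraries and 8.57 or above in the other 2, with *Trac* not listed. Of the T cell and innate lymphoid sums, *Il7r* alone held 6.75 and 4.37 FPKM with the knockout label. Its WT MI values were 2.75 and 2.8, its WT sham values 0.1 and 0.2. By group mean, *Cd3d* was below its WT sham level of 2.025 FPKM in both infarct groups, at 0.85 (WT MI) and 1.4 (KO-labelled). *Il1rl1* likewise had 1.52, 0.93 and 1.2. The sum thus does not give the direction of every gene in its list. In tissue RNA of this kind, fewer cells of a type and less RNA per cell cannot be told apart.

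Promoter sequences are shown for 3 members because their transcripts stood at different places in these data: *Egfr* and *Erbb2*, both with their highest group mean in the KO-labelled infarct libraries, and *Areg*, which stayed at or near 0. Each is the 250 bases before the RefSeq start of the gene on GRCm38.p6, all on the plus strand, at chr11:16751953-16752202 for *Egfr*, chr11:98412234-98412483 for *Erbb2* and chr5:91139349-91139598 for *Areg*. Capitals mark matches to the letters GGGCGG, called the GC box, to the CCAAT box, and to TGACGTCA, the cyclic AMP response element (CRE), each searched on both strands. They also mark the TATA box, written as TATAAA and searched on the forward strand only. No marked matches overlap.
Egfr: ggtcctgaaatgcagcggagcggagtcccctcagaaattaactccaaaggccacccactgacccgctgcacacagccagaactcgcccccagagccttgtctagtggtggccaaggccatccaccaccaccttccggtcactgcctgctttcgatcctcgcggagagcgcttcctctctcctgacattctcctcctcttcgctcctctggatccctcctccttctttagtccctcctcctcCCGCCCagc
Erbb2: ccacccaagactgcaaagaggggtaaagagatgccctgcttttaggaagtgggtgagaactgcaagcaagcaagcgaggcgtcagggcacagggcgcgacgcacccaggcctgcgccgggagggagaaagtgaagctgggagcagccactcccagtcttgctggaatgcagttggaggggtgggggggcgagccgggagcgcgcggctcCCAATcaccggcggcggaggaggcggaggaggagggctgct
Areg: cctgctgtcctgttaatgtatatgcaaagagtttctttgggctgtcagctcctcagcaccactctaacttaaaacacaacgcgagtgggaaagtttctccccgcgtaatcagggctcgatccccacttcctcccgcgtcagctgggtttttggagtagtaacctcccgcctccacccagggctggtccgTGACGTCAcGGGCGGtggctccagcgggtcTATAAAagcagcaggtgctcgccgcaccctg

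The *Areg* window held a CRE, a GC box and a TATA box close together before the start. Over 32851 mouse promoters of the same length, 1.55% held the CRE letters, 7.59% the TATA box and 32.7% the GC box. *Egfr* held 1 GC box and no TATA box, and *Erbb2* held 1 CCAAT box, a motif present in 33.8% of the promoters, and none of the other motifs. *Tgfa* held 2 GC boxes and *Erbb4* none of these motifs, and the AP-1 letters TGACTCA, present in 4.46% of promoters, were in none of the 5 windows. The GC content was 57.2% for *Areg*, 69.2% for *Tgfa*, 60.8% for *Egfr*, 66.0% for *Erbb2* and 54.0% for *Erbb4*, all above the median of 52.4% over the promoters. RefSeq entries were matched for these 5 of the 9 members, while *Hbegf*, *Ereg*, *Nrg1* and *Erbb3* are named only. A match is a description of letters, not of a bound site.

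*Hbegf*, which encodes heparin-binding EGF-like growth factor, a ligand of EGFR and ErbB4, was the most abundant member in every library and was about 3-fold higher after infarction. Its FPKM was 10.55 and 6.33 in WT sham, 30.52 and 24.81 for WT MI, and 25.67 and 24.52 for the KO-labelled infarct libraries. Both WT MI libraries and both libraries labelled *Card9* KO MI stood above both WT sham libraries, and the 2 infarct groups overlapped. The means were 8.44 ± 2.98, 27.7 ± 4.04 and 25.1 ± 0.813 FPKM (SD, n = 2 each), a ratio of 3.28 for WT MI over WT sham. The log2 fold change of FPKM + 1 was 1.63 (SE 0.21, 95% interval 1.14 to 2.12, adjusted p = 0.00096) for WT MI against WT sham, with limma on all genes and Benjamini-Hochberg adjustment. Adjusted p-values given from here on are from that test, and called means an adjusted p below 0.05. *Hbegf* stayed called under each of 10 other settings and in the 6 fits that each lack 1 library. The gene lies on mm9 chromosome 18 at 36664583 to 36675459, minus strand, with 6 exons.

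**Figure D1:**
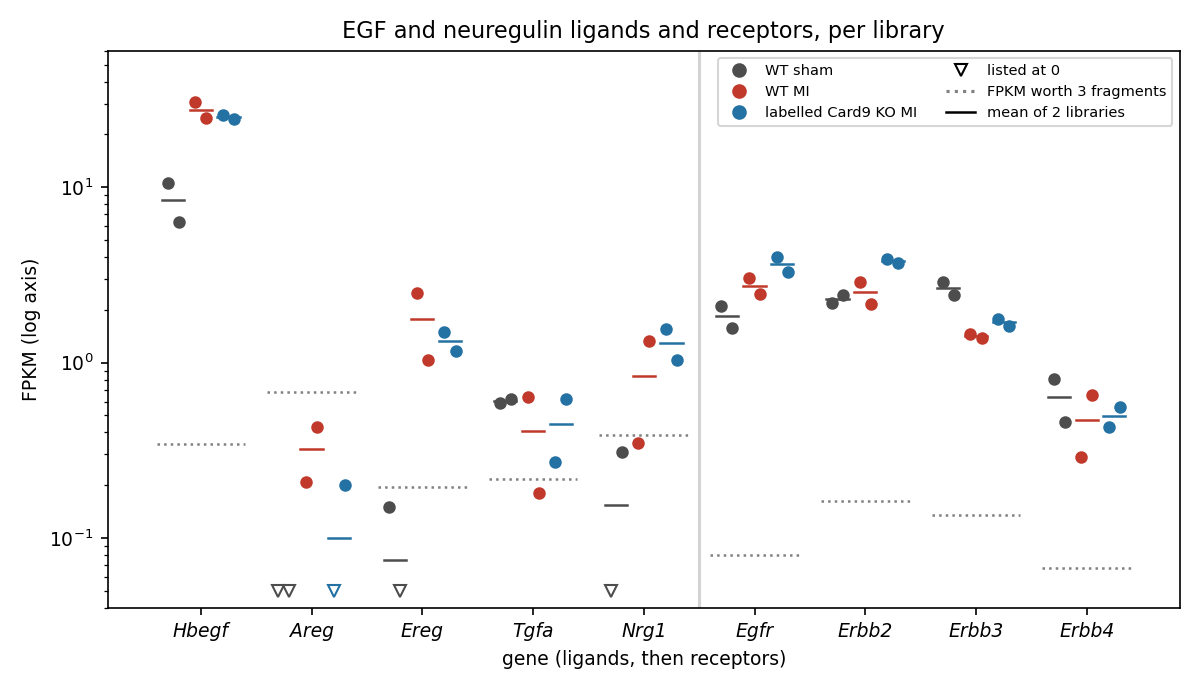
FPKM of the 9 members in each of the 6 libraries on a log axis, with the mean of each group as a bar, open triangles for libraries listed at 0 and a dotted line at the FPKM that 3 fragments would give. *Hbegf* sits at 24.52 or above in all 4 infarct libraries and at 10.55 or below in WT sham, while *Areg* stays under its dotted line in every library.

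*Ereg*, which encodes epiregulin, a ligand of EGFR and ErbB4, was near 0 in WT sham and present in all 4 infarct libraries. Its FPKM was 0.15 and 0 in WT sham, 2.49 and 1.04 for WT MI, and 1.5 and 1.16 for the KO-labelled infarct libraries. The WT sham values stand for about 2 fragments in one library and 0 in the other, against about 41.4 and 16.9 fragments in WT MI, so the infarct and sham libraries did not overlap. Scaled for depth, the ratio of WT MI to WT sham was 22.5. Its exact 95% interval on these estimated fragments, 5.97 to 191, covers counting error only. The log2 fold change of FPKM + 1 was 1.32 (SE 0.30, adjusted p = 0.012). Its size is set by the pseudocount at such low levels, with 3.44 at a pseudocount of 0.1 and 0.41 at 5, and it is no measure of the fold itself. *Ereg* entered the test only because the infarct libraries lifted it over the minimum level for the test, 1 FPKM in at least 2 libraries, so its call carries no weight as a count among the members, and it was lost without WT sham replicate 2 or without WT MI replicate 1, where the adjusted p reached 0.072.

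*Areg*, which encodes amphiregulin, starts 46.0 kb after the end of *Ereg* on mm9 chromosome 5 and stayed at the limit of detection. It was listed at 0 in both WT sham libraries, at 0.21 and 0.43 FPKM in WT MI, and at 0 and 0.2 FPKM in the KO-labelled infarct libraries. These values stand for 0 to 2 fragments a library, and with totals of 0, 3 and 1 fragments over the 3 groups no fold change is given. Of the 2 neighbouring genes, *Ereg* thus gave about 58 fragments over the WT MI libraries and *Areg* 3. *Areg* lies at 91568641 to 91577458 and *Ereg* at 91503643 to 91522675, both on the plus strand, and the window with the CRE, GC box and TATA box shown above is that of *Areg*.

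*Tgfa*, which encodes transforming growth factor alpha, another ligand of EGFR, showed no difference that could be told from its spread. Its FPKM was 0.59 and 0.62 in WT sham, 0.64 and 0.18 for WT MI, and 0.27 and 0.62 for the KO-labelled infarct libraries, and the groups overlapped. It did not reach the minimum level for the test. Without that minimum, its log2 fold change for WT MI against WT sham was -0.21, with a 95% interval of -0.71 to 0.30.

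*Nrg1*, which encodes neuregulin 1, the ligand of ErbB3 and ErbB4, was at 0 and 0.31 FPKM in WT sham, 0.35 and 1.33 FPKM for WT MI, and 1.55 and 1.04 FPKM for the KO-labelled infarct libraries. Both of the last stood above both WT sham libraries, while the lower WT MI library lay next to the higher sham library. About 0 and 2 fragments lie behind the sham values and 3 and 11 behind those of WT MI, counted on the longest of 3 coding transcripts. For WT MI against WT sham, the log2 fold change was 0.63 (SE 0.33, 95% interval -0.13 to 1.40, adjusted p = 0.171), and 1.99 and 0.18 at pseudocounts of 0.1 and 5. Like *Ereg*, *Nrg1* entered the test only through the infarct libraries.

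Over the 5 ligands, *Hbegf* made up 87.2% to 93.4% of the summed FPKM in each library. The sum was 11.29 and 7.26 in WT sham, 34.21 and 27.79 for WT MI, and 28.99 and 27.54 for the KO-labelled infarct libraries.

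Among the receptors, *Erbb3* fell in WT MI while *Egfr* and *Erbb2* did not pass the test. *Erbb3*, whose product signals mainly as the partner of ErbB2, had 2.88 and 2.44 FPKM in WT sham, 1.46 and 1.38 for WT MI, and 1.78 and 1.61 for the KO-labelled infarct libraries. All 4 infarct libraries lay below both WT sham libraries. The means were 2.66 in WT sham and 1.42 in WT MI, a ratio of 0.534, and the log2 fold change was -0.59 (SE 0.19, 95% interval -1.04 to -0.14, adjusted p = 0.046). The adjusted p lay just inside the threshold: *Erbb3* was called under 5 of 9 other settings and under none of the 6 fits with a library left out, where the fold change stayed between -0.68 and -0.51 and the adjusted p between 0.064 and 0.18. The gene lies on mm9 chromosome 10 at 128004579 to 128026708, minus strand, with 28 exons. Schwann cell markers, listed because ErbB3 is a receptor of that lineage, summed to 7.08 and 6.0 FPKM in WT sham and 14.2 and 12.6 in WT MI, while *Sox10*, a transcription factor of Schwann cells, stood at 0.93 and 0.85 FPKM in WT sham and 0.54 and 0.65 in WT MI. Their part in the *Erbb3* values was not tested.

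*Egfr*, the receptor of *Hbegf*, *Areg*, *Ereg* and *Tgfa* products, had 2.1 and 1.57 FPKM in WT sham, 3.03 and 2.45 for WT MI, and 4.0 and 3.27 for the KO-labelled infarct libraries. Each infarct library stood above both sham libraries, but the log2 fold change of WT MI against WT sham, 0.40 (SE 0.20, adjusted p = 0.161), did not pass the test. *Erbb2*, the shared partner, had 2.19 and 2.42 FPKM in WT sham, 2.89 and 2.16 for WT MI, and 3.91 and 3.69 for the KO-labelled infarct libraries. WT MI straddled the sham values, and the log2 fold change was 0.09 (95% interval -0.35 to 0.53, adjusted p = 0.753), with a sign that turned under 3 other scalings of the libraries. *Erbb4*, the neuregulin receptor of cardiomyocytes, had 0.81 and 0.46 FPKM in WT sham, 0.29 and 0.65 for WT MI, and 0.43 and 0.56 for the KO-labelled infarct libraries. The groups overlapped, and the gene stayed under the minimum level for the test. Without that minimum its log2 fold change was -0.16 for WT MI against WT sham, with an interval of -0.61 to 0.29.

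**Figure D2:**
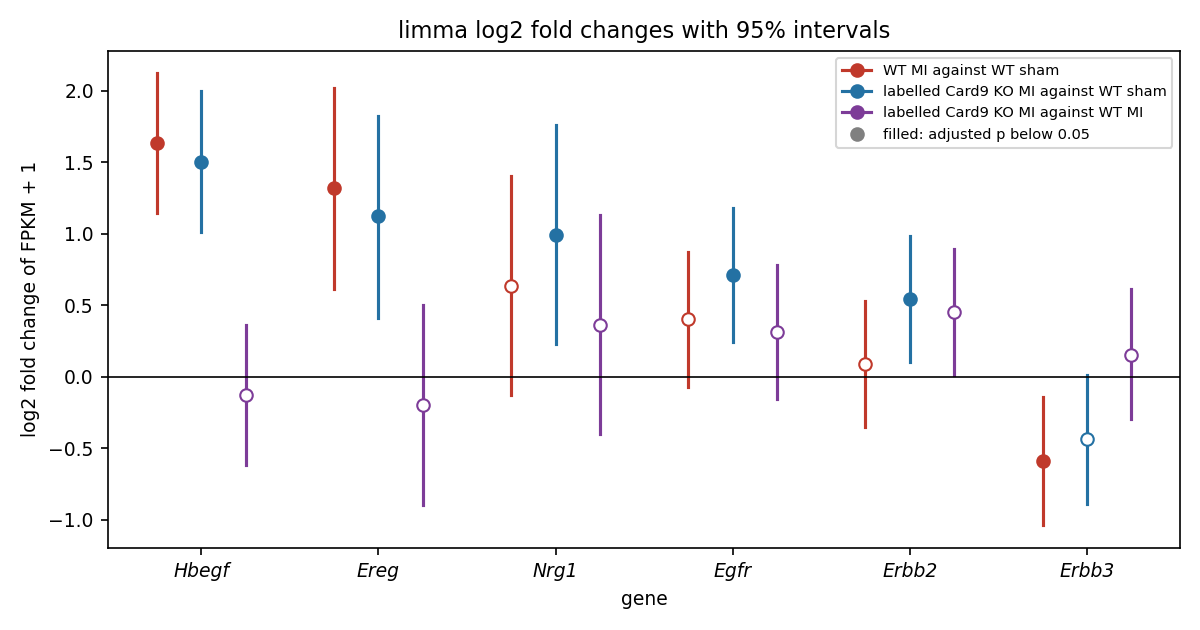
Log2 fold change of FPKM + 1 (points) and 95% interval (lines) in limma for the 6 members that reached the minimum level, in the 3 comparisons, with filled points for an adjusted p below 0.05. *Hbegf* is at 1.63 and 1.5 against WT sham and at -0.13 against WT MI, and *Erbb3* is at -0.59, -0.44 and 0.15.

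In all, 6 of the 9 members reached the minimum level. *Hbegf*, *Egfr*, *Erbb2* and *Erbb3* reached it in the WT sham libraries too, and of these *Hbegf* was called higher and *Erbb3* lower for WT MI against WT sham, where 27.7% of the 13120 genes tested were called higher and 9.39% lower. *Ereg* and *Nrg1* are left out of that count, and with so large a share of all genes moving it says nothing particular about the family. The screen of the study, recomputed from the FPKM (a ratio of group means of at least 2 and a probability against library noise of at least 0.8), called *Hbegf* higher and no other member, where 6.06% of genes were higher and 0.906% lower. With 2 libraries against 2, an exact permutation test cannot go below p = 0.333. Nothing in the labels says that the 2 libraries of a group came from separate mice, so the p-values measure the spread between these libraries only.

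For the KO-labelled infarct libraries against the same WT sham libraries, *Hbegf* was higher with a log2 fold change of 1.5 (95% interval 1.01 to 2.00, adjusted p = 0.00087). *Ereg* had 1.12 (adjusted p = 0.018), with 0.32 to 3.17 over the other settings. *Ereg* and *Nrg1* entered the test only through the infarct libraries, so their calls carry no weight here either. *Nrg1* had a log2 fold change of 0.99 (95% interval 0.23 to 1.76, adjusted p = 0.038; 2.76 and 0.29 at pseudocounts of 0.1 and 5), and scaled for depth its ratio of fragments to WT sham was 8.46, with a counting interval of 2.09 to 74.0. *Egfr* was higher with 0.71 (95% interval 0.24 to 1.18, adjusted p = 0.022), from a mean of 1.83 to 3.63 FPKM. *Erbb2* was higher with 0.54 (95% interval 0.10 to 0.98, adjusted p = 0.046), from 2.3 to 3.8 FPKM. *Erbb3* had -0.44 (95% interval -0.89 to 0.01, adjusted p = 0.096) and was not called. Leaving aside *Ereg* and *Nrg1*, the members called higher were *Hbegf*, *Egfr* and *Erbb2*, and 34.8% of all genes tested were called higher and 14.3% lower, so this count too says nothing particular about the family. The screen again called *Hbegf* alone, beside 8.56% of genes higher and 1.94% lower. Leaving out a library of either group compared took calls away: without WT sham replicate 2 or KO-labelled replicate 1, *Hbegf* alone was called. *Erbb2* was called in none of the 6 such fits, with adjusted p-values of 0.051 to 0.17, and in 2 of 9 other settings, and its log2 fold change was 0.41 (adjusted p = 0.11) with upper-quartile scaling and 0.09 (adjusted p = 0.71) with quantile normalization. *Egfr* was not called without WT sham replicate 2 (adjusted p = 0.1), without KO-labelled replicate 1 (adjusted p = 0.12) or with quantile normalization, where its log2 fold change was 0.26 (adjusted p = 0.32). Both infarct comparisons use the same WT sham libraries, so their values are not independent of each other.

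Between the 2 infarct groups no member was called. In limma, 0 of the 6 tested members passed, 1 (*Erbb2*) had an unadjusted p below 0.05, and the recomputed screen called 0 (0.728% of genes higher, 0.332% lower), where 0.816% of all genes were called higher, 0.587% lower, and 11.5% had an unadjusted p below 0.05 and were higher. *Erbb2* was higher in the KO-labelled infarct libraries by 0.45 on the log2 scale (95% interval 0.01 to 0.89, adjusted p = 0.236), with both of its values above both of WT MI. *Egfr* differed by 0.31 (95% interval -0.16 to 0.78, adjusted p = 0.445), and its libraries did not overlap either. With 2 libraries against 2, such separation gives an exact permutation test no less than p = 0.333. How many of all genes separate in this way was not counted, here or against WT sham. *Hbegf* differed by -0.13 (95% interval -0.62 to 0.36, adjusted p = 0.787), *Ereg* by -0.20 (-0.90 to 0.50), *Nrg1* by 0.36 (-0.40 to 1.13) and *Erbb3* by 0.15 (-0.30 to 0.61). A p above the threshold does not show that the groups are alike. The summed fibroblast, macrophage and smooth muscle markers also stood higher in the KO-labelled infarct libraries, the last at 523 and 500.0 FPKM against 284 and 268 in WT MI. Not all markers of these lists moved alike: of the fibroblast list *Postn*, *Col1a2* and *Col1a1* were called higher (1.57, 1.09 and 1.06), while *Pdgfra* was at -0.52 (adjusted p = 0.094) and *Dcn* at -0.16, and of the smooth muscle list *Tagln* and *Acta2* were called higher (1.47 and 1.19), while *Rgs5* was at 0.08 and *Kcnj8* at 0.03. No macrophage marker was called, with *Itgam* at -0.10 and *C1qb* at 0.82 (adjusted p = 0.053). The part of these cell types in the *Erbb2* and *Egfr* values was not tested.

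The makeup of the receptor transcripts was taken as shares within each library, which a single scaling factor per library leaves as they are. Quantile normalization is not such a factor, and the shares were computed on the deposited FPKM only. *Erbb3* made up 36.1% and 35.4% of the summed FPKM of the 4 receptors in WT sham, 19.0% and 20.8% for WT MI, and 17.6% and 17.6% for the KO-labelled infarct libraries. *Egfr* made up 26.3% and 22.8%, 39.5% and 36.9%, and 39.5% and 35.8% in the same order, and *Erbb2* 27.4% and 35.1%, 37.7% and 32.5%, and 38.6% and 40.4%. The *Erbb3* and *Egfr* shares of sham and infarct libraries did not overlap, and those of *Erbb2* did. The summed FPKM of the 4 receptors was 7.98 and 6.89 in WT sham, 7.67 and 6.64 for WT MI, and 10.12 and 9.13 for the KO-labelled infarct libraries.

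**Figure D3:**
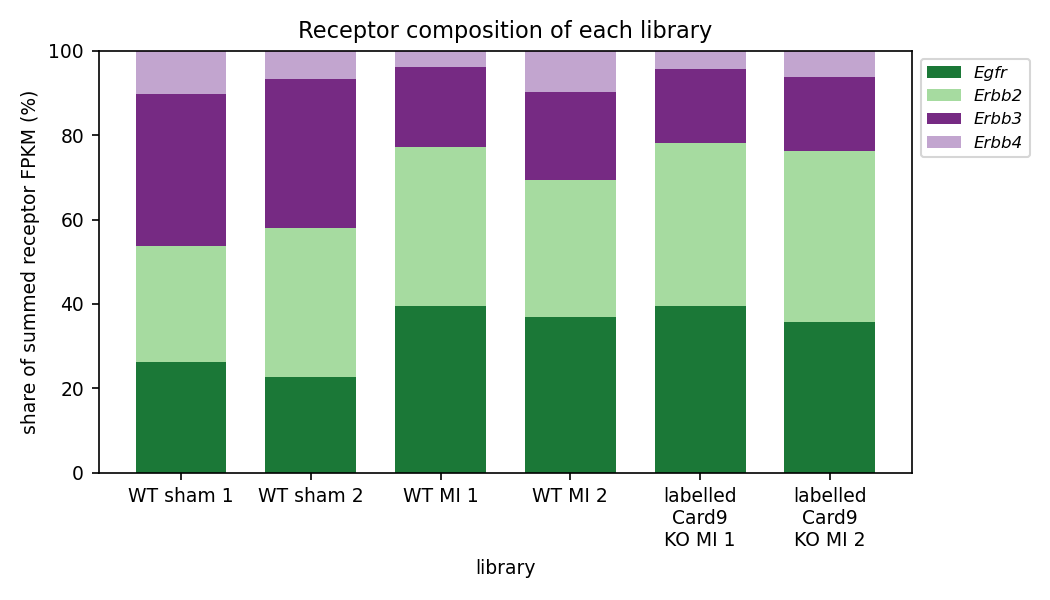
Share of each receptor gene in the summed FPKM of *Egfr*, *Erbb2*, *Erbb3* and *Erbb4*, in percent, with 1 bar for each library. The *Erbb3* band narrows from 35.4% or more in the WT sham libraries to 20.8% or less in the 4 infarct libraries.

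Ratios within a library were taken as well. *Erbb2* over *Erbb3*, 2 receptors that pair to answer neuregulin, was 0.760 and 0.992 in WT sham, 1.98 and 1.57 for WT MI, and 2.20 and 2.29 for the KO-labelled infarct libraries. *Egfr* over *Erbb3* was 0.729 and 0.643, 2.08 and 1.78, and 2.25 and 2.03. Sham and infarct did not overlap in either ratio. *Hbegf* over *Egfr*, a ligand set against its receptor, was 5.02 and 4.03 in WT sham, 10.1 and 10.1 for WT MI, and 6.42 and 7.50 for the KO-labelled infarct libraries, so the last group lay between the other two. These are values per library and were not tested.

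By mean FPKM, the order in WT sham was *Hbegf* (8.44), *Erbb3* (2.66), *Erbb2* (2.30), *Egfr* (1.83), *Erbb4* (0.635), *Tgfa* (0.605), *Nrg1* (0.155), *Ereg* (0.075) and *Areg* (0). In WT MI, *Hbegf* (27.7) was followed by *Egfr* (2.74), *Erbb2* (2.53), *Ereg* (1.77) and *Erbb3* (1.42). *Erbb3* and *Erbb2* nearly met in WT sham, where the lower *Erbb3* library had 2.44 and the higher *Erbb2* library 2.42 FPKM. *Egfr* and *Erbb2* overlapped in both infarct groups, *Erbb4* and *Tgfa* in all 3 groups, and *Ereg* and *Erbb3* in WT MI, so their order is not set by these libraries. On mm9, *Tgfa* lies on chromosome 6 at 86145420 to 86225151 (plus strand), *Nrg1* on chromosome 8 at 32928500 to 33119581 (minus), *Egfr* on chromosome 11 at 16652206 to 16818161 (plus), *Erbb2* on the same chromosome at 98273784 to 98299030 (plus) and *Erbb4* on chromosome 1 at 68078760 to 69154633 (minus).

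The genes whose levels followed *Hbegf* most closely over the 6 libraries were *Mif*, *Cyb561* and *Gars*, each with a Pearson r of 0.998. *Mif* encodes macrophage migration inhibitory factor, *Cyb561* a cytochrome of secretory vesicles, and *Gars* the glycyl-tRNA synthetase. *Mif* had 180.5 and 150.75 FPKM in WT sham and 256.96 and 232.92 in WT MI. For *Erbb3* they were *Pex7* (0.997), a receptor for peroxisomal import, *Mrpl11* (0.993), a mitochondrial ribosomal protein, and *T2* (0.986). The 6 points fall into sham and infarct, and 13114 genes were ranked, so these values carry no test. How many genes reach such values was not counted.

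Of the other ligands of the family, *Egf* itself was lower after infarction in the values but not called in WT MI. It had 1.97 and 2.95 FPKM in WT sham, 0.67 and 1.48 for WT MI, and 0.82 and 0.5 for the KO-labelled infarct libraries. All 4 infarct libraries lay below both sham libraries, the log2 fold change was -0.75 (adjusted p = 0.071) for WT MI and -1.05 (adjusted p = 0.016, called) for the KO-labelled infarct libraries, each against WT sham. *Nrg4*, a ligand of ErbB4, had 2.92 and 1.86, 2.41 and 2.22, and 1.55 and 1.61 FPKM. *Btc*, betacellulin, had 0.88 and 0.79, 0.97 and 1.06, and 1.2 and 0.5 FPKM. Neither was called in any comparison on the deposited FPKM. *Epgn*, *Nrg2* and *Nrg3* stayed at 0.45 FPKM or below in every library and did not reach the minimum. Under each of 3 other scalings, 1 gene of this list was called lower for WT MI. For the KO-labelled infarct libraries against WT sham, 2 were called lower with quantile normalization, which must include *Nrg4* or *Btc*.

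Several genes whose products release the ligands rose after infarction. Of 8 tested, 5 were called higher for WT MI against WT sham and 0 lower, where 27.7% and 9.39% of all genes were, with a median log2 fold change of 0.55 beside 0.18 over all genes tested. *Adam17*, the main sheddase of EGF family ligands, went from 11.75 and 11.02 FPKM in WT sham to 18.82 and 17.65 in WT MI, and its log2 fold change was 0.64 (adjusted p = 0.0044). *Adam10*, which also sheds EGF and betacellulin, went from 14.55 and 15.6 FPKM to 28.18 and 24.88, and *Adam9* from 19.16 and 15.63 FPKM to 42.41 and 43.11. *Adam12*, which has been linked to HB-EGF shedding in the heart, went from 0.53 and 0.25 FPKM to 10.18 and 10.01. Its log2 fold change was 3.00 (adjusted p = 3.3e-05). *Adam12* reached the minimum level for the test only through the infarct libraries, so its call carries no weight in the count of release genes.

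**Figure D4:**
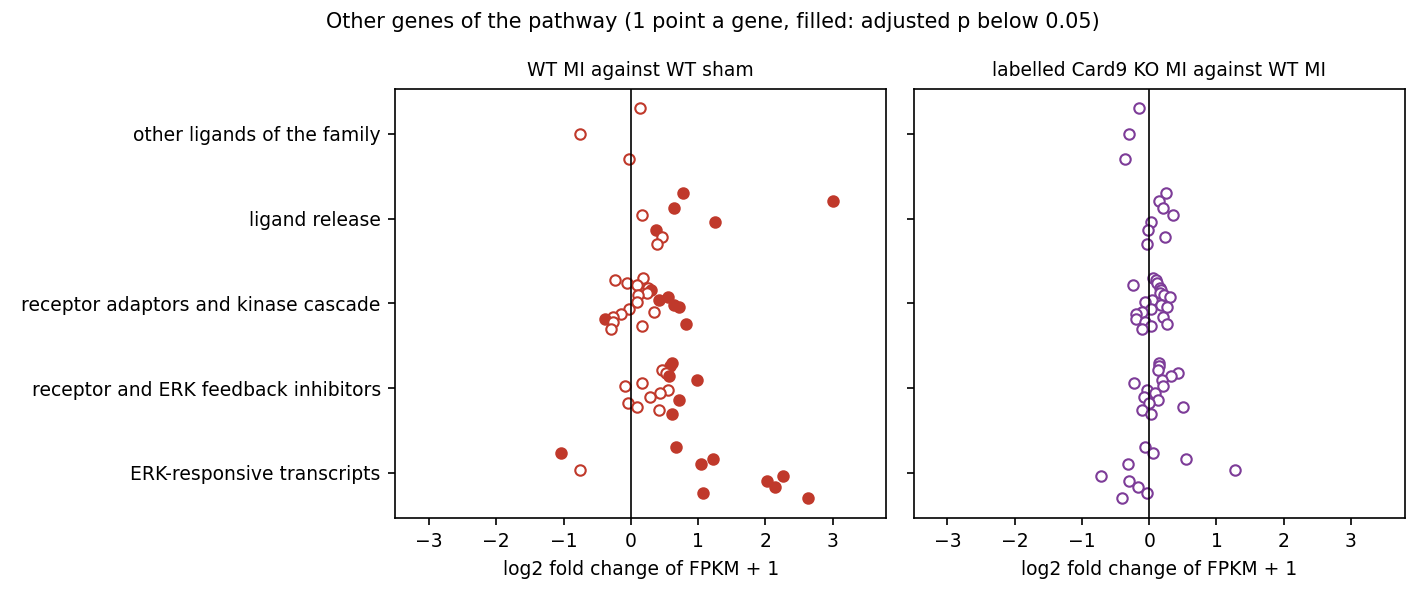
Log2 fold change of FPKM + 1 for each tested gene of 5 pathway lists, for WT MI against WT sham (left) and for the KO-labelled infarct libraries against WT MI (right), with filled points for an adjusted p below 0.05. Filled points lie mostly to the right of 0 in the left panel, and the right panel has none. The highest is *Adam12* at 3.00, which entered the test only through the infarct libraries.

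Adaptors and kinases between the receptors and ERK were mixed. Of 22 tested, 6 were called higher in WT MI and 1 lower, close to the shares of all genes (27.7% and 9.39%), with a median of 0.14 beside 0.18. *Shc1*, an adaptor that binds active receptors, went from 13.58 and 12.63 FPKM in WT sham to 24.34 and 23.33 in WT MI (log2 fold change 0.82, adjusted p = 0.001), *Nras* had 0.72, *Map2k1* 0.56 and *Mapk3*, which encodes ERK1, 0.65. *Ptpn11*, the phosphatase SHP2, was the 1 called lower, at -0.39 (adjusted p = 0.013). With upper-quartile scaling, 4 of the list were called higher and 5 lower, so its direction rests on the scaling.

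Among inhibitors of EGFR and ERK signalling, of 16 tested, 6 were called higher and 0 lower, where 27.7% and 9.39% of all genes were, with a median of 0.50 beside 0.18. Under quantile normalization 1 was called, so these counts are not a result about the inhibitors. *Errfi1*, which encodes the EGFR inhibitor MIG6, went from 10.15 and 16.86 FPKM in WT sham to 25.68 and 28.5 in WT MI (log2 fold change 0.99, adjusted p = 0.0076). *Spry4* and *Spred1*, inhibitors of the RAS to ERK pathway, had 0.61 and 0.72, and *Cbl*, the ubiquitin ligase that sends EGFR to degradation, 0.62, all called. Of 10 transcripts that ERK signalling is known to induce, 8 rose and 1 fell, where 27.7% and 9.39% of all genes did. Their median was 1.15 beside 0.18. Of the 8, *Fosl1* and *Etv4* (0.81 and 0.14 FPKM in WT sham) reached the minimum level only through the infarct libraries. The calls of *Fosl1* and *Etv4* carry no weight in that count. *Plaur*, the urokinase receptor, went from 3.43 and 2.86 FPKM to 26.08 and 23.51 (log2 fold change 2.64, adjusted p = 2.5e-05), *Fosl1* from 0.56 and 0.58 to 6.99 and 6.14, *Myc* from 4.74 and 3.43 to 21.49 and 21.35, and *Ier3* from 16.8 and 14.76 to 79.28 and 57.12. *Egr1*, an immediate early transcription factor, was the 1 that fell, from 87.07 and 60.3 FPKM to 29.6 and 40.97 (log2 fold change -1.04, adjusted p = 0.0055). The summed macrophage and fibroblast markers given above were higher in the same libraries, and their part in these counts was not tested.

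Against the same WT sham libraries, the KO-labelled infarct libraries had 7 of 8 release genes called higher and 0 lower, 9 and 3 of the 22 adaptors and kinases, 8 and 0 of the 16 inhibitors, and 8 and 1 of the 10 ERK-responsive transcripts, where 34.8% of all genes were called higher and 14.3% lower. The counts of the adaptors and kinases lie close to those shares. With quantile normalization the counts were 5 and 0, 5 and 6, 4 and 2, and 7 and 1 in the same order. With upper-quartile scaling they were 5 and 0, 5 and 5, 8 and 0, and 8 and 1. The counts of the first 3 lists thus rest in part on the scaling. *Adam12*, *Fosl1* and *Etv4* are in these counts although they entered the test only through the infarct libraries. Between the 2 infarct groups, 0 genes of these 4 lists were called in limma. Their medians there were 0.18, 0.08, 0.13 and -0.11, beside 0.04 over all genes, and the ERK-responsive transcripts with the lowest p-values went both ways, *Fos* at 1.28 (adjusted p = 0.102), *Fosl1* at -0.71 (adjusted p = 0.103) and *Plaur* at -0.40 (adjusted p = 0.168).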

How the data were processed

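Total RNA of heart tissue was sequenced by the authors on an Illumina HiSeq system. Per the paper's methods, clean reads were aligned to mm9, and the submitters' processing notes name BWA and Bowtie2. The deposited values are FPKM per gene, which the authors computed from the aligned reads. Counter, annotation and strand are not given in the sources used here. Of 17441 NCBI gene numbers, 17390 were matched to symbols. Depth was estimated from steps between low FPKM values of 5147 single-transcript genes. Of the values, 72.3% to 78.9% were whole within 0.15 fragments, so no counts were rebuilt for the limma test. For the members, fragments were estimated from FPKM, the longest GENCODE M1 coding transcript and this depth. The counting intervals of *Ereg* and *Nrg1* are exact binomial intervals on those estimates, summed by group and rounded to whole fragments.

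log2(FPKM + 1) of the 13120 genes with at least 1 FPKM in at least 2 libraries was fitted with limma 3.58.1 (R 4.3.3, eBayes with trend) over all 6 libraries in 3 groups, with Benjamini-Hochberg adjustment over all genes and calls below 0.05. Data were also simulated for WT MI against WT sham (13092 genes tested). Of 50 genes each, 14 changed 1.5-fold, 35 changed 2-fold and 48 changed 4-fold were recovered, with 2 false calls. The simulation gave every gene the same assumed dispersion and transcript length. It changed few genes, all with a mean above 2 FPKM. It says little about genes near or below that level, and its false calls are not the error rate of the calls made here. Positions are from GENCODE M1 on mm9 and promoters from RefSeq.

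The members and gene lists were chosen with earlier results of these data known. Named from each other list were its 4 genes with the lowest p for WT MI against WT sham and all ligands of the family. Marker lists are given as sums. *Fos*, *Egr1*, *Etv4*, *Ptpn11* and the single markers given with values fall outside that rule and were named after their values were seen. Those markers are *Sox10* and the ones of the fibroblast, macrophage, smooth muscle, endothelial, epicardial and mesothelial, and T cell and innate lymphoid lists. Alternatives were other pseudocounts, minimum levels, scalings and variance models, the screen of the study recomputed on group means, a replicate block and each library left out.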

Additional observations from a re-analysis of the deposited data

How the results depend on the processing

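*Hbegf* was called higher in both infarct groups against WT sham under every alternative run, and no member was called between the infarct groups under any. For WT MI against WT sham, members called higher (with *Ereg* and *Nrg1*, which entered only through the infarct libraries, counted here) numbered 2, and 1 with a mean FPKM of at least 5 or by the screen of the study, and 1 to 2 with a library left out (1 without WT sham replicate 2 or without WT MI replicate 1). The 1 called lower, *Erbb3*, became 0 with a pseudocount of 0.1, with no minimum level, with a mean FPKM of at least 5, with only the groups compared, with a 2-fold minimum, by the screen and with any library left out. For the KO-labelled infarct libraries against WT sham, the 5 called higher became 1 with a mean FPKM of at least 5, 2 with quantile normalization, 2 with a 2-fold minimum, 1 by the screen and 1 to 4 with a library left out, and the 0 called lower became 1 (*Erbb3*) with no variance trend, with quantile normalization, or scaled by the upper quartile or without the 100 most abundant genes. The 5 called higher there include *Ereg* and *Nrg1*, which entered only through the infarct libraries. The screen's noise was taken over all genes. A first version that left out genes at 0 in both libraries gave the same member counts, 1 and 0 against WT sham, and 117 higher and 53 lower genes between the infarct groups instead of 125 and 57; the choice between them was made after both were seen.

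*Erbb2* turned to -0.03, -0.26 and -0.02 for WT MI against WT sham under upper quartiles, under quantile normalization and when scaled without the 100 most abundant genes, and ranged from -0.06 (without WT MI replicate 1) to 0.24 with a library left out. Without that library, *Hbegf*, *Ereg* and *Nrg1* turned to 0.02, 0.19 and -0.03 between the infarct groups, within ranges of -0.27 to 0.02, -0.59 to 0.19 and -0.03 to 0.76 over the libraries left out. The cause was not tested. Of 273 values for single members, 227 kept direction and call, 35 lost a call, 4 gained one and 7 turned.

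Same-numbered libraries did not deviate together across the genes tested (r 0.002, -0.008 and 0.02). That shows no broad shared deviation but cannot settle whether the numbers pair the libraries. With a replicate block, 2 members were called higher and 0 lower in WT MI, and 4 higher in the KO-labelled infarct libraries, each against WT sham. Over all genes, WT MI against WT sham gave 3637 higher and 1232 lower, and 2832 and 1855 with upper-quartile scaling and 2287 and 2414 with quantile normalization, which moved the median log2 fold change from 0.185 to -0.074. Between the infarct groups, 107 higher and 77 lower became 7 and 5 with no minimum level, 47 and 33 with a pseudocount of 0.1, and 5 and 4 without WT MI replicate 1. Depth of 3010000 to 4290000 fragments limits *Areg*, *Ereg*, *Nrg1*, *Tgfa* and *Erbb4* most.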
